A study of Homo sapiens with 15 samples.

Results

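In TF-1 cells, a human erythroleukemia cell line, 1731 autosomal regions carried both GATA2 and the cohesin subunit SMC3 in each of 2 lines and RUNX1 in neither. They were chosen from the peak lists alone. Peaks of all 6 lists that overlapped by at least 1 bp were joined into union regions, and a region was kept when the GATA2 and SMC3 lists of both lines had a peak in it and neither RUNX1 list did. The rule kept 1731 of 96158 union regions on the 22 autosomes, or 1.80% of them. The presence of these peaks, and the lack of a RUNX1 peak, is therefore the choice and not a result. The strengths of the GATA2 and SMC3 peaks come from the same lists and are given as description, with no test.

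The cells had been transduced with wild-type RAD21, called WT here, or with RAD21 Q592*, whose asterisk marks a stop codon. Per the labels' protocols, both lines were treated with doxycycline for 6 days, which induces the transduced RAD21, so no uninduced cells are among the samples, and the labels do not say how much RAD21 of the cells' own remained. Chromatin was fixed with 1% formaldehyde for 10 minutes and sheared to 200 to 400 bp on average. The series holds 15 libraries, 11 from ChIP and 4 from input DNA, with 2 per line for each target and for input, except that Q592* RUNX1 has 1. The deposited lists are 6, 1 per line and target, with no value per library. The spread between libraries is thus unknown and no difference between WT and Q592* could be tested. Intervals given below are 95% intervals that cover counting error or the spread between regions in these pooled lists, not the variation between cultures.

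GATA2 is a zinc-finger transcription factor that maintains blood stem and progenitor cells and binds GATA motifs in enhancers and promoters. RUNX1 is a transcription factor of the same cells that often binds near GATA factors. Cohesin is a ring of SMC1, SMC3, RAD21 and a STAG subunit, which holds sister chromatids together and forms chromatin loops. SMC3 is one of the pair of long arms of the ring, and RAD21 closes it. Much of the cohesin on chromosomes lies at sites of the insulator protein CTCF, and a further share lies at enhancers and promoters bound by transcription factors. No target of these libraries marks CTCF, and no gene or sequence was assigned to the regions.

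The recovered totals of the ChIP pools ranged from 93.4 to 107.5 M reads over the 6 lists, M standing for 1000000, and those of their background pools from 72.6 to 95.3 M. A summit is the position of highest ChIP coverage in a peak, and the number of ChIP reads covering it was recovered from the deposited values of each peak. The lists hold 38962 GATA2 peaks in WT and 59009 in Q592*, 42353 SMC3 peaks in WT and 32789 in Q592*, and 9603 RUNX1 peaks in WT and 15582 in Q592*. The lowest deposited −log10 q of a list was between 2.00 and 2.05, so a region with binding below that threshold counts as unbound.

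The members are a minority of the stable sites of either protein. Of 22314 regions with GATA2 in both lines and no RUNX1, 7.76% (Wilson interval 7.41 to 8.12) had SMC3 in both lines and are the members. SMC3 was called in WT only at 2565 of them, or 11.5%, in Q592* only at 284, or 1.27%, and in neither line at 17734, or 79.5%. Seen from cohesin, 6.85% of the 25283 regions with SMC3 in both lines and no RUNX1 were members, and 22255, or 88.0%, had no GATA2 peak in either line. Among the 4556 regions with both GATA2 and SMC3 in both lines, the members made up 38.0% (36.6 to 39.4). Of the others, 2052, or 45.0%, had RUNX1 in both lines, 651, or 14.3%, in Q592* only, and 122, or 2.68%, in WT only.

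Regions that just missed the rule were separated by peak strength, which the rule depends on through the threshold of the lists. At the 2565 regions with SMC3 in WT only, the WT SMC3 summit had a median of 31 reads and a −log10 q of 6.01, against 66 reads and 23.8 at the members. Their GATA2 peaks were close to those of the members, with a median of 58 reads in WT and 100 in Q592*, against 59 and 104. In the 1155 regions with stable SMC3 where GATA2 was called in Q592* only, the Q592* GATA2 summit had a median of 49 reads, and SMC3 had 97 in WT and 95 in Q592*. The 651 regions that gained a RUNX1 call in Q592* had stronger GATA2 than the members, with a median of 102 reads in WT and 205 in Q592*, and weaker SMC3, with 45 and 47. Just inside the threshold, the weakest member peaks had a −log10 q of 2.06 for WT GATA2, 2.02 for Q592* GATA2, 2.07 for WT SMC3 and 2.01 for Q592* SMC3. The region chr2:188445227-188446681 was the weakest for Q592* GATA2, with 30 GATA2 reads there beside 168 SMC3 reads. At chr6:27560357-27560953 the Q592* SMC3 peak was the weakest, with 46 reads beside 186 for GATA2. At chr13:95926380-95926997 the Q592* SMC3 peak also lay at the edge, with 53 reads and a −log10 q of 2.06. A RUNX1 summit lay 0.8 kb away from the middle of that region.

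In Q592*, GATA2 at the median member ranked well above SMC3 within its list. In WT their ranks were close in the full lists, but not in lists trimmed to equal length. The median number of reads at the GATA2 summit was 59 in WT, with a middle 50% of the members between 40 and 86, and 104 in Q592*, between 67 and 167. For SMC3 the median was 66 reads in WT, between 40 and 121, and 67 in Q592*, between 42 and 121. A single summit of that depth is imprecise, since the exact Poisson interval of 59 reads runs from 44.9 to 76.1 and that of 104 reads from 85.0 to 126. The lowest member had 20 and 26 reads for GATA2 and 18 and 21 for SMC3, in WT and Q592*. Per M reads of the pool, the medians were 0.549 for WT GATA2, 0.981 for Q592* GATA2, 0.638 for WT SMC3 and 0.717 for Q592* SMC3. The authors' fold enrichment over local background had medians of 4.81, 7.22, 6.34 and 5.08 in the same order.

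Ranked by −log10 q within each list, the median member was above 60.7% of all WT GATA2 peaks (58.3 to 62.2) and 75.03% of the Q592* ones (73.3 to 76.4). It was above 56.5% of the WT SMC3 peaks (53.8 to 59.6) and 39.3% of the Q592* ones (35.4 to 43.7). In the Q592* GATA2 list, 866 members, or 50.03%, were in the strongest 25% of the list and 133 in the weakest 25%. In the Q592* SMC3 list, 417 were in the strongest 25% and 677, or 39.1%, in the weakest 25%. Lists of different length give different ranks to the same peak, so the ranks of WT and Q592* are not a change between lines. With lists trimmed to equal length, GATA2 and SMC3 ranked at 68.3% and 45.6% in WT and at 69.5% and 41.7% in Q592*. GATA2 was then well above SMC3 in both lines. With a −log10 q of at least 10 for both proteins, the ranks were 48.4% and 65.5% in WT and 69.2% and 57.2% in Q592*.

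The presence of RUNX1 went with another order of strengths. Regions with all 3 targets in both lines had GATA2 peaks above 92.8% of the list in WT and 95.3% in Q592*, and SMC3 peaks above 38.2% and 18.9%. Their median GATA2 summit had 132 reads in WT and 267 in Q592*, and their SMC3 summit 47 and 49. Regions with stable GATA2 and neither other target had a median of 43 and 70 GATA2 reads. Regions with stable SMC3 and neither other target had 98 and 93 SMC3 reads. The members' GATA2 thus lay between that of GATA2-alone regions and that of regions with all 3 targets, and their SMC3 between that of regions with all 3 targets and that of SMC3-alone regions. Classes that need a peak in more lists select on strength in each of them.

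**Figure D1:**
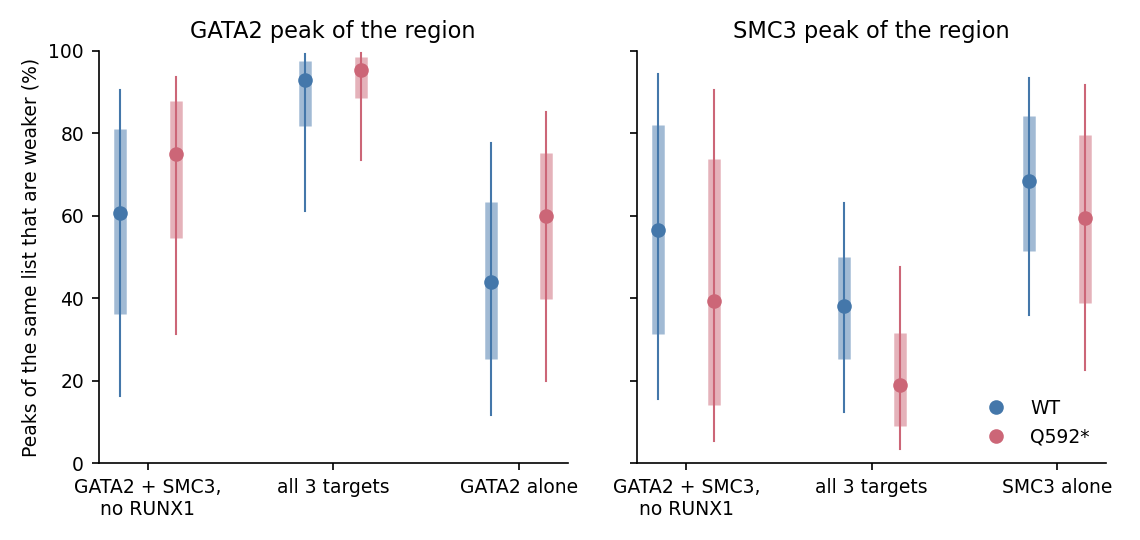
Strength of the GATA2 peak (left) and the SMC3 peak (right) of each region, as the percentage of peaks of the same list with a lower −log10 q, for WT (blue) and Q592* (red). Points are medians, thick bars the middle 50% and thin bars the 10th to 90th percentiles of regions; "alone" means called in both lines with neither other target. The GATA2 medians of the members (60.7% and 75.03%) sit below those of regions with all 3 targets (92.8% and 95.3%).

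The members were wide, at a median of 556 bp (364 to 914 from the 10th to the 90th percentile). Regions with all 3 targets had a median of 693 bp, GATA2-alone regions 329 bp and SMC3-alone regions 380 bp. A union of several lists is at least as wide as its widest peak. Single member peaks were narrower, with a median width of 283 bp for WT GATA2, 377 bp for Q592* GATA2, 364 bp for WT SMC3 and 353 bp for Q592* SMC3. Local background, as estimated by the peak caller, was over 3 times the most common value of the list at 17.1% of the members in the WT GATA2 list and 25.2% in the Q592* SMC3 list. In the WT SMC3 list the same held for 18.4% of the members and 38.4% of the SMC3-alone regions. In the Q592* SMC3 list it held for 34.4% of the SMC3-alone regions, and in the WT GATA2 list for 10.4% of the GATA2-alone regions.

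At most members the 2 proteins peaked at nearly the same place, and the distance was not part of the rule beyond the joining of overlapping peaks. The median distance between the GATA2 and SMC3 summits was 59 bp in WT (interval of the median 55 to 63) and 55 bp in Q592* (51 to 59). In WT, 783 members, or 45.2%, had the summits within 50 bp of each other, and in Q592* 812, or 46.9%. Within 100 bp were 1195 members, or 69.0% (66.8 to 71.2), in WT and 1216, or 70.2% (68.1 to 72.4), in Q592*. Over all autosomal regions with both targets in the line, whatever RUNX1 did, the share within 50 bp was 44.4% in WT and 43.5% in Q592*. The share within 100 bp over those regions was 70.0% in WT and 68.4% in Q592*. The members' shares were therefore near that background at both distances.

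A tail of members had the summits well apart. In WT, 288 members, or 16.6% (14.96 to 18.5), had them over 200 bp apart, and in Q592* 278, or 16.1% (14.4 to 17.9). Regions with all 3 targets had 13.8% (12.4 to 15.4) and 12.48% (11.1 to 14.0) over 200 bp. The intervals of these shares overlapped in WT and did not in Q592*, and they cover the regions of these pooled lists only. Over all regions with both targets, the shares were 11.9% and 13.7%. SMC3 lay at the higher coordinate at 830 members in WT and 852 in Q592*, or 47.9% and 49.2%.

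**Figure D2:**
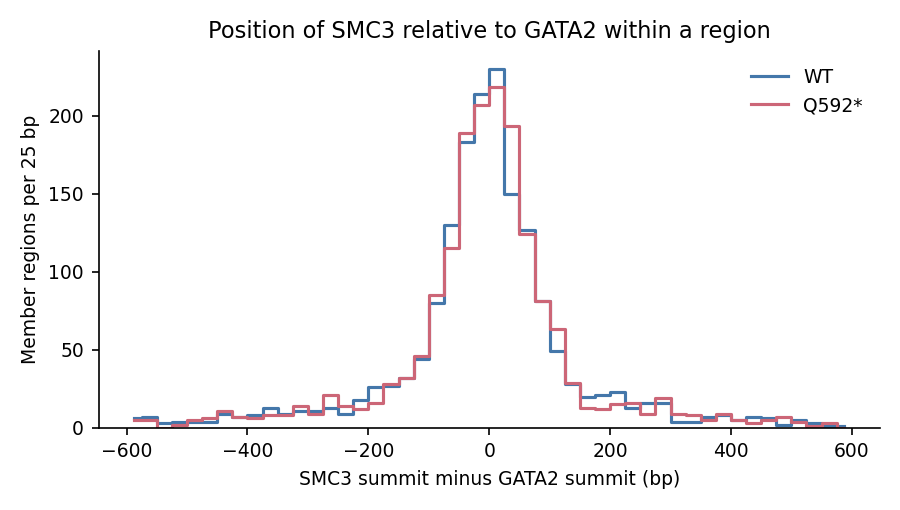
Position of the SMC3 summit minus that of the GATA2 summit (bp) in WT (blue) and Q592* (red), as the number of member regions in each 25 bp step. Both lines peak near 0 and fall off to either side; 32 members in WT and 29 in Q592* lie beyond 600 bp and are not drawn.

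The arrangement was kept between the lines at most members. The summits were within 100 bp in both lines at 1054 members, or 60.9%, and over 200 bp apart in both at 218, or 12.6%. At 216 of these 218, SMC3 lay on the same side of GATA2 in WT and in Q592*. The choice of the 218 left little room for another outcome. A change of side would need shifts far above the median summit differences between the lines, 18 bp for GATA2 and 22 bp for SMC3. The shares over all regions with both proteins in both lines were not computed, so these counts cannot be called particular to the members. The 218 regions had more SMC3 reads than the 1054, with a median of 106 in WT and 109.5 in Q592* against 65.5 and 66, and fewer GATA2 reads, with 54 and 89 against 62 and 109. They were also wider, at a median of 815.5 bp against 498 bp. The region chr6:53348262-53350017 was one of the pair of members with the summits farthest apart in WT. Its GATA2 summit had 134 reads in WT and 294 in Q592*, and its SMC3 summit 152 and 171, at a distance of 1133 bp in WT and 1196 bp in Q592*. The other, chr1:113682984-113684671, had 51 and 72 GATA2 reads and 132 and 134 SMC3 reads, 1134 and 1067 bp apart.

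The summits of most members lay close to each other in WT and Q592*. The GATA2 summit of a member differed by a median of 18 bp (17 to 19) between the lines and the SMC3 summit by 22 bp (21 to 24). In regions with all 3 targets the SMC3 summit differed by a median of 49 bp (46 to 52), and in SMC3-alone regions by 15 bp. A GATA2 summit over 200 bp away in the other line was found at 41 members, or 2.37% (1.75 to 3.20), and such an SMC3 summit at 60, or 3.47%. For the GATA2 summit, regions with all 3 targets had 2.00% (1.48 to 2.70) and GATA2-alone regions 1.65% (1.47 to 1.84). Both shares were below that of the members, with intervals that overlapped it. For the SMC3 summit, the same held for 213 regions with all 3 targets, or 10.4%, and for 51 SMC3-alone regions, or 0.229%, so the members lay between these classes. The SMC3 peaks of regions with all 3 targets had fewer reads than those of the members, and those of SMC3-alone regions more, as given above; the part of strength in this order was not tested. A difference can also arise where another peak of the region is the strongest in the other line. More than a single GATA2 peak was called at 40 members in WT and 33 in Q592*, and more than a single SMC3 peak at 85 and 36. Which differences arose in this way was not determined. The largest GATA2 difference among the members was at chr6:74224962-74226252, where the summit lay 825 bp away in Q592* and the reads were 92 in WT and 190 in Q592*. At that region the SMC3 summit differed by 36 bp, with 75 and 102 reads.

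Across the members, stronger GATA2 did not go with stronger SMC3. Over the 1731 members the Spearman correlation between GATA2 and SMC3 summit reads was 0.01 in WT and −0.05 in Q592*. By −log10 q, the measure behind the ranks, it was weakly negative, at −0.24 in both WT and Q592*. The same protein in the other line followed closely, with 0.93 for GATA2 and 0.96 for SMC3. Over the 2052 regions with all 3 targets, the correlation of GATA2 with SMC3 reads was 0.39 in WT and 0.36 in Q592*. These are descriptions across regions of the same pools, which share local background and passed thresholds on each of the values, and regions are not replicates.

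Set against each other, most members were richer in SMC3 in WT and richer in GATA2 in Q592*, and in both lines the members were richer in SMC3 than other regions with both proteins. Reads per M come from different antibodies, so a member called richer in SMC3 has more SMC3 than GATA2 reads per M and need not hold more of the protein. In WT, SMC3 was the higher at 962 members, or 55.6% (53.2 to 57.9), and in Q592* at 670, or 38.7% (36.4 to 41.02). Over all 4556 regions with both proteins in both lines, whatever RUNX1 did and the members included, the shares were 27.7% and 18.0%. Members with at least 2 times more SMC3 than GATA2 numbered 533, or 30.8%, in WT and 285, or 16.5%, in Q592*, against 14.0% and 7.20% of all those regions. Those with at least 2 times more GATA2 numbered 297, or 17.2%, in WT and 604, or 34.9%, in Q592*, against 46.2% and 65.4%. The shift towards GATA2 in Q592* was shared by all those regions. From WT to Q592*, 300 members, or 17.3%, went from more SMC3 to GATA2 higher or equal and 8 the other way, against 10.1% and 0.285% of all those regions. Of the members with more SMC3 in WT, the 300 were 31.2% (28.3 to 34.2), and over all those regions the same share was 36.3% (33.7 to 39.0). The median shift of the log2 ratio of SMC3 to GATA2 was −0.68 at the members and −0.74 over all. At 662 members SMC3 was the higher in both lines, and at 761 GATA2 was higher or equal in both.

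**Figure D3:**
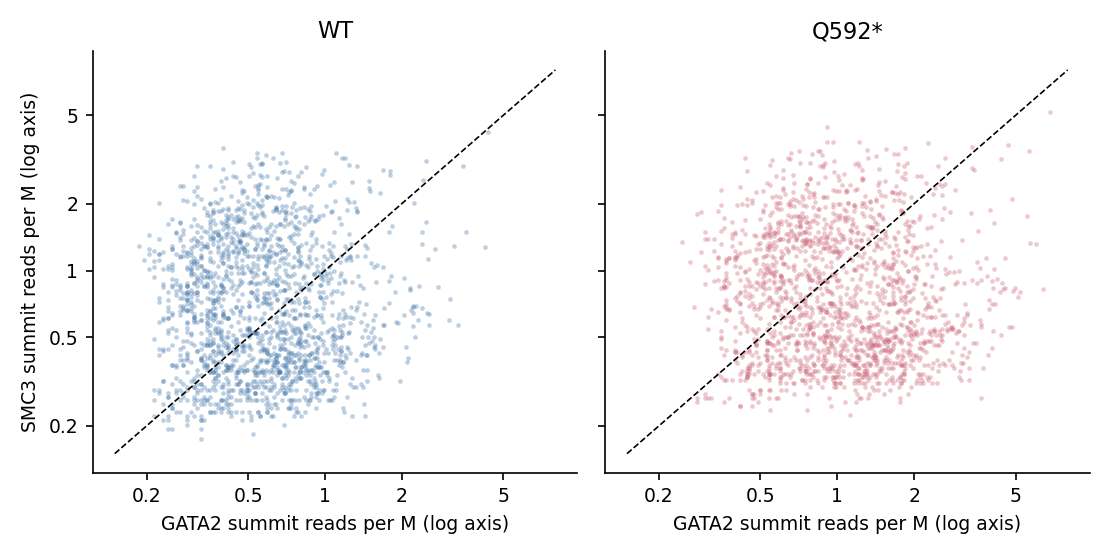
SMC3 against GATA2 summit reads per M reads of the pool at the 1731 members, in WT (left) and Q592* (right), both axes logarithmic; each point is a region and the dashed line marks equal values. The cloud shows no slope in either line, and 962 points in WT and 670 in Q592* lie above the line.

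GATA2 summit reads per M were higher in Q592* than in WT at nearly every member. The median log2 ratio of Q592* over WT was 0.85 (0.83 to 0.87), with 0.42 and 1.24 at the 10th and 90th percentiles and a range from −0.31 to 1.74. GATA2 was higher in Q592* at 1724 members, or 99.6%, against a background of 98.6% over all 32433 autosomal regions with GATA2 in both lines. It was at least 2-fold higher at 550 members, or 31.8%, against 28.2% over all those regions. The members' shares were thus close to those of the whole list. Regions with all 3 targets had a median log2 ratio of 0.97 and GATA2-alone regions one of 0.71. Dividing by the fragment length assumed for each list gave the members a median of 0.79, and 1718 of them were then higher in Q592*, against a background of 97.8%.

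At the members, the median GATA2 ratio rose with the reads at the WT summit. The WT reads set both the bins and the denominator of the ratio, and local background was not subtracted from the reads. The part of either in the rise was not tested. Members with under 40 GATA2 reads at the WT summit had a median log2 ratio of 0.75 (0.69 to 0.81), those with 40 to 59 reads 0.80, those with 60 to 89 reads 0.90 (0.86 to 0.93) and those with 90 or more 0.93 (0.90 to 0.94). In the same order, GATA2-alone regions had medians of 0.68, 0.70, 0.75 and 0.80. Regions with all 3 targets had 0.89, 0.89, 1.00 and 0.97. By median, the members lay between the other classes in each bin. Under 40 reads, the interval of the 63 regions with all 3 targets (0.70 to 1.06) overlapped that of the members. From 40 to 59 reads, that of the 155 such regions (0.81 to 0.97) overlapped the members' 0.76 to 0.83. With 90 or more reads, the median WT reads were 117 at the members, 163 at regions with all 3 targets and 111 at GATA2-alone regions.

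The 7 members whose GATA2 was not higher in Q592* were singled out after their values were seen. At chr9:15354852-15355217, the lowest, GATA2 had 54 reads in WT and 43 in Q592*, a log2 ratio of −0.31 (exact interval −0.92 to 0.30). SMC3 there had 43 and 40 reads. The others lay between −0.09 and 0, at chr5:68338711-68339386, chr8:37851180-37851480, chr5:102017056-102017590, chr3:16642359-16643405, chr13:89355534-89355782 and chr13:46863016-46863471. Each of the 7 intervals reached above 0, so none was distinguishable from level counts at this depth. At the other end, chr2:205299393-205299867 had 63 GATA2 reads in WT and 208 in Q592*, a log2 ratio of 1.74 (1.33 to 2.17), beside 37 and 46 SMC3 reads. At chr14:25869833-25870148 GATA2 had 31 and 101 reads and SMC3 50 and 43. At chr6:90307605-90308031 GATA2 had 47 and 150 reads and SMC3 67 and 64. In these 3 regions GATA2 was over 3 times higher in raw reads and SMC3 was near level.

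SMC3 at the members was nearly level between the lines, and its direction depended on the scale. The median log2 ratio of SMC3 summit reads per M was 0.17 (0.15 to 0.18), but −0.10 after division by the assumed fragment length, which was 126 bp for the WT list and 151 bp for the Q592* list. On the first scale SMC3 was higher in Q592* at 1320 members, or 76.3%, against a background of 67.6% over all 28781 regions with SMC3 in both lines. On the second scale it was higher at 630 members, or 36.4%, against 28.6%. No direction of SMC3 can therefore be given. On both scales the members' share was above that of all regions with stable SMC3 but not above that of regions with all 3 targets. Those were at 77.8% on the first scale and 39.4% on the second, and SMC3-alone regions at 65.3% and 26.4%. By reads per M, SMC3 was at least 2-fold higher in Q592* at 3 members, or 0.173%, against 0.341% of all such regions. After division by the fragment length it was at least 2-fold higher at 0 members, against 0.0591% of all such regions.

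Among regions of like strength, the order of members and SMC3-alone regions was not the same at all strengths. With under 40 SMC3 reads in WT, the median log2 ratio per M was 0.33 (0.29 to 0.35) at the members and 0.39 (0.36 to 0.41) at SMC3-alone regions. With 40 to 59 reads it was 0.15 (0.11 to 0.18) at the members and 0.20 (0.18 to 0.21) at SMC3-alone regions. From 60 to under 120 reads the members had 0.15 (0.13 to 0.18) and SMC3-alone regions 0.08 (0.07 to 0.08). With 120 or more the members had 0.11 (0.09 to 0.13) and SMC3-alone regions 0.06 (0.05 to 0.06). The members were thus lower than SMC3-alone regions in both weaker bins and higher in both stronger ones. Regions with all 3 targets had 0.33, 0.17, 0.12 and 0.07 from the weakest to the strongest bin. A region with a weak WT peak entered any of these classes only if its Q592* peak also passed the threshold.

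**Figure D4:**
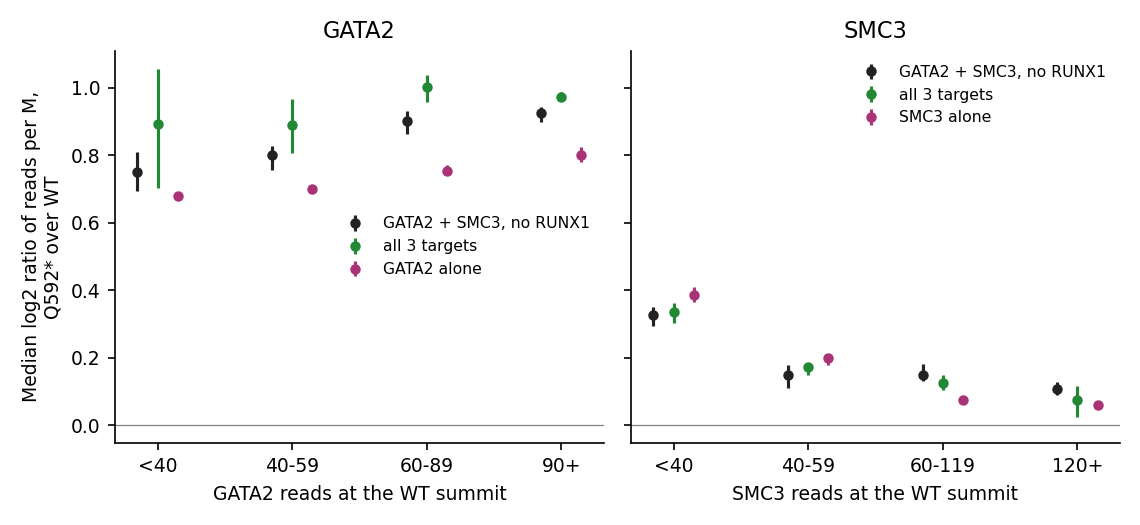
Median log2 ratio of summit reads per M, Q592* over WT, for GATA2 (left) and SMC3 (right), by the number of reads at the WT summit; bars are 95% intervals of the median over regions. GATA2 medians of the members (black) run from 0.75 to 0.93, between GATA2-alone regions (purple, left) and regions with all 3 targets (green), while SMC3 medians run from 0.33 down to 0.11 (SMC3-alone regions are purple on the right).

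Ordered by their balance in WT, the members ranged from GATA2-rich to SMC3-rich regions with different surroundings. The members were cut into 4 groups of 432 or 433 by the WT ratio of SMC3 to GATA2 reads per M, so the reads of WT follow from the cut. From the GATA2-rich to the SMC3-rich group, the median WT GATA2 summit had 93, 59, 54 and 41 reads and the median WT SMC3 summit 37, 47, 85 and 147. The reads of Q592* were not used for the cut but followed those of WT closely. Their Spearman correlation over the members was 0.93 for GATA2 and 0.96 for SMC3. The order in Q592* therefore largely follows from the cut as well. Its medians were 187, 106, 88 and 70 GATA2 reads and 41, 47, 85 and 145 SMC3 reads. SMC3 was the higher in Q592* at 0 of 433 members of the GATA2-rich group, 15 of the second, 225 of the third and 430 of 433 of the SMC3-rich group. The cut itself favours high GATA2 reads by counting error in the first group and low ones in the last.

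The distance between the proteins and the distance to RUNX1 also varied along this order. In Q592* the summits were over 200 bp apart at 7.16% of the GATA2-rich group, 12.01% of the second, 22.9% of the third and 22.2% of the SMC3-rich group. The median distance to the nearest RUNX1 summit of either line was 18.7 kb (16.2 to 21.7) in the GATA2-rich group, 22.2 kb in the second, 30.4 kb in the third and 33.4 kb (28.0 to 37.8) in the SMC3-rich group. A RUNX1 summit lay within 10 kb at 33.7% of the GATA2-rich and 18.5% of the SMC3-rich members. The nearest region with stable SMC3 alone was a median of 40.6 kb away (35.2 to 46.4) from GATA2-rich members and 28.2 kb (24.2 to 34.9) from SMC3-rich ones. The SMC3 summit differed between the lines by a median of 49 bp in the GATA2-rich group, where SMC3 was weakest, and 13 bp in the SMC3-rich group. For GATA2 the same medians were 14 and 24 bp. The median log2 ratio of GATA2, Q592* over WT, was 0.95 in the GATA2-rich and 0.77 in the SMC3-rich group, and that of SMC3 per M 0.25 and 0.13. These 2 ratios share the WT reads with the cut.

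**Figure D5:**
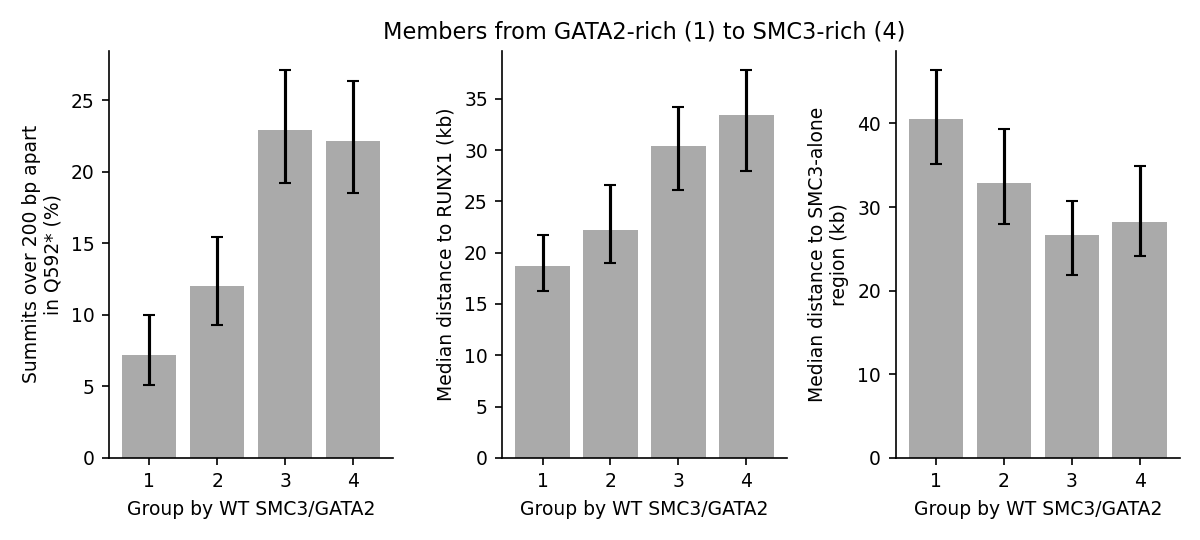
Members in 4 groups by the WT ratio of SMC3 to GATA2 reads per M, from GATA2-rich (1) to SMC3-rich (4). Bars give the percentage with summits over 200 bp apart in Q592* (left, Wilson intervals), the median distance to the nearest RUNX1 summit (middle) and to the nearest region with stable SMC3 alone (right, both with intervals of the median); the first goes from 7.16% to 22.2%, the second from 18.7 to 33.4 kb and the third from 40.6 to 28.2 kb.

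Over all members, the nearest RUNX1 summit lay at a median of 25.4 kb (23.4 to 27.9), and 475 members, or 27.4%, had one within 10 kb. GATA2-alone regions were at 28.0 kb, with 27.2% within 10 kb, and SMC3-alone regions at 52.0 kb, with 14.0%. In distance to RUNX1 the members were thus like other stable GATA2 regions without RUNX1. The members were closer to SMC3-alone regions than GATA2-alone regions were. The nearest SMC3-alone region was within 10 kb of 439 members, or 25.4% (23.4 to 27.5), of 16.2% of the GATA2-alone regions (15.7 to 16.7) and of 17.1% of the regions with all 3 targets (15.5 to 18.8). A stable GATA2-alone region was within 10 kb of 25.9% of the members, 38.5% of the regions with all 3 targets and 12.8% of the SMC3-alone regions.

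The members lay on every autosome. Chromosome 1 held 197, chromosome 6 176, chromosome 2 166 and chromosome 3 144, and chromosome 22 held 13. Their share of the stable GATA2 regions without RUNX1 was between 5.95% on chromosome 18 and 8.98% on chromosome 8. Chromosome 6 held 10.2% of the members, 9.17% of the GATA2-alone regions, 10.4% of the regions with all 3 targets and 6.28% of the SMC3-alone regions. Chromosome 19 held 1.21% of the members, 1.31% of the GATA2-alone regions, 1.41% of the regions with all 3 targets and 4.26% of the SMC3-alone regions. On both chromosomes the members' share was near that of the other GATA2 classes. The median log2 ratio of GATA2 was above 0 on 22 of 22 autosomes, from 0.76 on chromosome 22 to 0.98 on chromosome 9. Copy number differences between chromosomes of this line were not measured, and the local background differed, with a median in the WT GATA2 list of 1.13 times its most common value on chromosome 4 and 3.97 times on chromosome 19.

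Few pairs of neighbouring members were within 50 kb of each other, and the spacing of other classes was not compared. Of 1709 pairs of neighbours along a chromosome, 35 were within 10 kb and 140 within 50 kb, and the median gap was 645 kb. In windows of 1 Mb, 608 of the 1731 members were alone in their window, of 1038 windows with a member, and 20 windows held 5 or more. The densest window, chromosome 10 from 17 to 18 Mb, held 8 members among 29 stable GATA2 regions without RUNX1. Next came 15 to 16 Mb of chromosome 10, with 7 of 31, and 79 to 80 Mb of chromosome 4, with 7 of 39. In the densest window the balance differed between neighbours. At chr10:17241253-17241881 GATA2 had 205 reads in WT and 417 in Q592*, and SMC3 61 and 63, with the summits 11 and 25 bp apart. At chr10:17299302-17300212 GATA2 had 48 and 65 reads and SMC3 274 and 264, with the summits 131 and 112 bp apart. The first was GATA2-rich and the second SMC3-rich in both lines. At chr10:17037886-17038911 GATA2 had 120 and 273 reads and SMC3 52 and 48.

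The 12 members that ranked high in all 4 lists were named by their lowest rank among the lists, which was at least 91.3%. The strongest, chr15:81557421-81559252, had 469 GATA2 reads in WT and 723 in Q592*, and 435 and 483 SMC3 reads, with the summits 622 and 595 bp apart. Its local background was 10.2 to 13.3 times the most common value of the lists, and its fold enrichments were 7.57 and 9.69 for GATA2 and 6.64 and 8.36 for SMC3. The region had the most summit reads of any member in all 4 lists. Its enrichment was above the member medians, 4.81 and 7.22 for GATA2 and 6.34 and 5.08 for SMC3 in WT and Q592*. It was below the 90th percentiles of the members, 10.0 and 16.0 for GATA2 and 16.8 and 13.2 for SMC3. At chr1:23866191-23866773 GATA2 had 373 and 596 reads and SMC3 306 and 323, 54 and 62 bp apart, also over a high background of 5.19 to 6.92 times.

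Low background and high enrichment came together at chr12:104502703-104503574. There GATA2 had 240 reads in WT and 421 in Q592*, and SMC3 209 and 175, with the summits 49 and 28 bp apart and the nearest RUNX1 summit 180.5 kb away. Its GATA2 fold enrichments, 33.9 and 51.8, were the highest of any member in both lists, and its SMC3 folds were 34.9 and 22.8. The background was 1.00 to 1.23 times the most common value. At chr10:91019943-91020656 GATA2 had 261 and 465 reads and SMC3 266 and 297, so that both proteins had nearly equal reads in WT. At chr1:233926707-233927406 GATA2 had 194 and 365 reads and SMC3 291 and 264, with the summits 16 bp apart in WT and 1 bp in Q592*. In all 3 of these regions, GATA2 had more raw reads than SMC3 in Q592*, and in WT GATA2 had the more at the first of them.

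Others of the 12 had distant summits. At chr6:136547094-136548170 GATA2 had 144 reads in WT and 358 in Q592*, a log2 ratio of 1.33 (1.05 to 1.62), and SMC3 306 and 337, with the summits 425 and 428 bp apart. At chr8:103823128-103823760 GATA2 had 177 and 280 reads and SMC3 232 and 230, with the summits 318 and 301 bp apart and a RUNX1 summit 2.1 kb away. At chr14:21165391-21166489 GATA2 had 113 and 193 reads and SMC3 250 and 276. Here the GATA2 summit lay 504 bp away in Q592*, so the distance to SMC3 was 33 bp in WT and 467 bp in Q592*. The remaining 4 had summits between 31 and 117 bp apart in either line. They were chr1:91186935-91187483 with 131 and 273 GATA2 reads and 193 and 204 SMC3 reads, and chr6:52151533-52152322 with 140 and 307 GATA2 reads and 211 and 216 SMC3 reads. At chr1:52761750-52762436 GATA2 had 137 and 262 reads and SMC3 260 and 277. At chr1:184951033-184951734 GATA2 had 118 and 187 reads and SMC3 212 and 210. GATA2 reads per M were higher in Q592* at all 12, with intervals above 0, as at nearly every shared region.

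The 4 members with the highest and the 4 with the lowest SMC3 ratio showed how far SMC3 went at single sites. At chr8:105524813-105526112 SMC3 had 30 reads in WT and 64 in Q592*, a log2 ratio per M of 1.24 (0.59 to 1.92), and GATA2 had 35 and 39. The next were chr10:115562661-115563102 with 30 and 58 SMC3 reads, chr4:69819817-69820311 with 27 and 52, and chr1:223976574-223977114 with 28 and 50. All 4 had 30 or fewer SMC3 reads in WT, in the lowest bin of strength. At the other end, chr2:12603293-12603691 had 75 SMC3 reads in WT and 34 in Q592*, a log2 ratio of −0.99 (−1.62 to −0.39), while GATA2 had 54 and 57. Its SMC3 fold enrichment was 12.6 in WT and 4.36 in Q592*, over a background of 1.01 and 1.30 times the most common value. At chr11:46269121-46269539 SMC3 had 100 and 51 reads and GATA2 97 and 165, so the proteins differed in opposite directions in raw reads. At chr8:110463180-110464035 SMC3 had 102 and 55 reads, with a background of 2.97 times the most common value in WT and 5.17 in Q592*. At chr3:186737245-186737771 SMC3 had 160 and 92 reads and GATA2 83 and 115. The intervals of these 8 regions cover the counting of reads only, not the assumed fragment lengths, and the 8 were the extremes of 1731.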

How the data were processed

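GATA2, RUNX1 and SMC3 ChIP-seq peaks were used as deposited, 1 list per line and target (6 lists), whose peak names mark each as a merged call; no list gives values per library. Per the submitters' processing notes, the authors used Bowtie2, Picard and MACS2, and the build is hg19, with versions not given in the sources used here. As deposited, fold enrichment is a ratio of ChIP coverage to local background at the summit, and the deposited −log10 p and −log10 q (p-value and q-value) belong to the same summit. The deposited score was not used. Positions are those of hg19, counted from 1. Per region and list, the peak with the highest −log10 q was taken. Distances to the nearest RUNX1 summit start at the middle of the region. Those to the nearest SMC3-alone or GATA2-alone region run from middle to middle.

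Summit reads were recovered from the fold and −log10 p, using the Poisson model of MACS2 and the worth of 1 ChIP read fitted per list. They came out whole for at least 99.927% of the peaks of each list within a tolerance of 0.002 on −log10 p, against at most 1.702% with the worth set wrong by 3%. The recovery was tested on simulated data. Totals rest on 2 assumptions, an effective genome of 2700000000 bp and fragments as long as the list's narrowest peak (126 to 157 bp). The background totals so obtained differed within a line. They were 95.3 M for WT GATA2 and 86.7 M for WT RUNX1 and SMC3, and 72.6 M for Q592* SMC3 and 78.0 M for Q592* GATA2 and RUNX1. Why they differed was not tested. Reads per M (1000000 reads) use the ChIP totals. The assumed length is a divisor of each total, so dividing reads per M by that length cancels it. The median member summit had 59 to 104 reads, depending on the list, which sets the precision of a single region.

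Shares carry Wilson intervals, medians order-statistic intervals and ratios of reads exact binomial (Clopper-Pearson) intervals, all at 95% and covering counting error or the spread between regions only. With 1 pooled list per line and target, no test was made. The members, the classes compared and the lists were chosen with earlier results of these data known. Regions named by position are the 12 members with the highest value of their lowest rank in the 4 GATA2 and SMC3 lists, the 4 with the highest and the 4 with the lowest SMC3 ratio, and the 3 weakest; other regions were chosen after their values were seen. Gene names, motifs and sequences need the hg19 annotation or sequence, which were not used here. Input libraries entered only through the background of the lists; which inputs entered each is not known. Alternatives were other thresholds, overlaps, list lengths, backgrounds, chromosomes and fragment lengths. The tools were matplotlib 3.10.9, scipy 1.17.1, pandas 2.3.3 and numpy 2.4.6 under Python 3.11.15.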

Additional observations from a re-analysis of the deposited data

How the results depend on the processing

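Alternatives were computed for the number of members, their share of stable GATA2 regions without RUNX1, summit distances, ranks within lists, log2 ratios and the share with more SMC3 than GATA2 reads per M. Of 102 alternative values, 61 stayed within the interval of the reported value or, for the number of members, within 1.5 times it, 40 moved beyond it and 1 turned its sign. The median log2 ratio of SMC3 turned to −0.10 when divided by the assumed fragment length, which by construction lowers it by the log2 ratio of those lengths, 0.26. The same division gave 0.79 for GATA2 and more SMC3 than GATA2 at 63.2% of the members in WT. The division and every alternative for the log2 ratios and the share with more SMC3 were added after seeing the data.

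With a −log10 q of at least 10 for GATA2 and SMC3, 626 members remained by count, 5.05% of stable GATA2 regions without RUNX1. The median summit distance in WT was then 52 bp, and the median member ranked above 48.4% and 69.2% of the GATA2 peaks in WT and Q592* and above 65.5% and 57.2% of the SMC3 peaks. More SMC3 than GATA2 was found at 74.3% in WT and 47.1% in Q592*. Requiring GATA2 and SMC3 peaks to overlap by 50% of the shorter gave a share of 6.99%, distances of 50 and 49 bp, and 75.5% and 76.2% within 100 bp. Requiring summits within 200 bp gave a share of 6.33%, distances of 44 and 43 bp, and 82.9% and 83.9% within 100 bp, closer by construction. It also gave ranks of 76.6% for Q592* GATA2, 53.8% for WT SMC3 and 34.5% for Q592* SMC3, and more SMC3 at 51.9% in WT and 34.99% in Q592*. Lists trimmed to equal length gave a log2 ratio of 0.91 for GATA2, GATA2 ranks of 68.3% and 69.5%, a WT SMC3 rank of 45.6% and more SMC3 in Q592* at 35.2%. Without regions of local background over 3 times the most common value, 1136 members remained by count, 6.41% of stable GATA2 regions without RUNX1. Distances were then 53 and 48 bp, with 72.4% and 73.9% within 100 bp, the SMC3 log2 ratio was 0.19, and SMC3 ranks were 52.2% and 34.8%. Apart from what a setting does by construction, the cause was not tested. With no RUNX1 peak within 1000 bp (1662 members) or without chromosome 13 (1667), no value moved beyond its interval.

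No paired analysis was possible because each list is pooled over libraries and carries no value per library; for the same reason no value without a replicate exists. The planned shares at transcription starts and with GATA or CTCF motifs were not run, since they need hg19 annotation or sequence. Binding below the threshold of a list was not measured, and Q592* RUNX1 rests on 1 library.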
